A study of Mus musculus with 12 samples.

Results

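The genes of 10 factors that hold embryonic stem cells in the pluripotent state, or that return differentiated cells to it, were examined for 2 histone marks in mouse mesenchymal stem cells (MSCs). The genes were chosen by name, as Pou5f1, Sox2, Nanog, Klf4, Myc, Lin28a, Lin28b, Zfp42, Esrrb and Sall4, and are 10 of the 21938 protein-coding genes in the annotation of the same genome build. Every peak in a gene body and in the 20000 bp on each side was read from the peak lists.

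The cells were bone-marrow MSCs from mice of 3 to 5 months, and the study's methods describe them as stromal cells released from hind limb bones and sorted as CD45-, Ter119-, Sca-1+ and CD140a+ cells of C57BL/6N mice. The groups were kept at 2% oxygen (hypoxia) or at 21% oxygen (normoxia) in α-MEM, with 5% CO2 in both, and no gene was altered in either group. By the study's methods, all cells grew at 2% oxygen up to the sort on day 12 and were then held at either level for 7 days, whereas the labels name both levels for the culture before the sort. ChIP-seq, which sequences the DNA bound to a modified histone, gave 12 libraries in 6 groups of 2, namely H3K27ac, H3K4me3 and an input control at each oxygen level. The labels do not name the animals behind the 2 libraries of a group. The study describes its ChIP-seq of H3K27ac and of H3K4me3 as biologically independent experiments. Each mark and oxygen level was deposited as 1 peak list made from both of its libraries, so read depth, replicate spread and input signal were not analysed here and no comparison below carries a test.

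H3K4me3, the trimethylation of lysine 4 of histone H3, lies at the starts of genes that are active or held ready, above all where CpG dinucleotides are dense. H3K27ac, the acetylation of lysine 27, marks active promoters and active enhancers. Oct4 (the product of Pou5f1), Sox2 and Nanog form the core of the pluripotency network and bind each other's regulatory DNA, whereas Klf4 and Myc act in many dividing or differentiating tissues as well and were used with Oct4 and Sox2 to reprogram fibroblasts. Differentiated cells generally keep Pou5f1 and Nanog silent, often with methylated promoters.

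The 10 genes separated into 3 states at their starts. Klf4 and Myc carried both marks within 1000 bp of an annotated start, beside 37.7% of all protein-coding genes. Sox2, Lin28b and Esrrb carried H3K4me3 without H3K27ac, a state found at 22% of protein-coding genes. Pou5f1, Nanog, Lin28a, Zfp42 and Sall4 carried neither mark, as did 39.1% of protein-coding genes. No member had H3K27ac alone at a start, which was seen at 1.22% of protein-coding genes. The states were the same in the hypoxia and in the normoxia lists, because every peak near these genes was called at both oxygen levels.

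To show what the starts in each state look like, the 250 bases before the start are printed 5′ to 3′ for 5 genes from the RefSeq promoter table of GRCm38.p6, with CpG dinucleotides in capitals, and for the outer start of Lin28b from the genome of the same build. RefSeq and GENCODE place some starts a little apart. The Klf4 promoter lay inside a peak of both marks, and the Sox2 promoter and the outer Lin28b promoter lay inside H3K4me3 peaks. The inner Lin28b promoter, at the gene's only start in the basic transcript set of GENCODE, and the promoters of Pou5f1 and Nanog overlapped no peak.
Klf4 (chr4:55532476-55532725, minus strand): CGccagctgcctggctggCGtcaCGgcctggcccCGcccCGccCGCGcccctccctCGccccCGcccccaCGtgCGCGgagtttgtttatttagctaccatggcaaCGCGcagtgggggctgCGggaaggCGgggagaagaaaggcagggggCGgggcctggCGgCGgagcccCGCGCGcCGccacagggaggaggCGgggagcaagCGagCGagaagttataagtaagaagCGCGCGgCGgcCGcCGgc
Sox2 (chr3:34649745-34649994, plus strand): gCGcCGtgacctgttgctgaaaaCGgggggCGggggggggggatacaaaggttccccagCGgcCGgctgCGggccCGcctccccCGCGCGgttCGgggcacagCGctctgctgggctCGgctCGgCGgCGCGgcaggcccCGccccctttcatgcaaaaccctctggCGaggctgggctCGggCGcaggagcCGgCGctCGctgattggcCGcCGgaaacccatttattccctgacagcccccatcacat
Lin28b outer start (chr10:45486396-45486645, minus strand): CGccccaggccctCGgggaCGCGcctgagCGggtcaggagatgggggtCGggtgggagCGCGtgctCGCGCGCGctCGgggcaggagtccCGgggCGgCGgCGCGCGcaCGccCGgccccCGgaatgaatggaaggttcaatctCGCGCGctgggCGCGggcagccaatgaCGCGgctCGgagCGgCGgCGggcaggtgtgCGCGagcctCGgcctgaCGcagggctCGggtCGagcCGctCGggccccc
Lin28b inner start (chr10:45470202-45470451, minus strand): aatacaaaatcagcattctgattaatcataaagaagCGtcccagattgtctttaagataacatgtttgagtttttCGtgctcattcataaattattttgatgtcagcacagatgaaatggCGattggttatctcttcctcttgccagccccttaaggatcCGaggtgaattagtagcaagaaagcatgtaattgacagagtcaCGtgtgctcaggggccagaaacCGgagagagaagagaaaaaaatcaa
Pou5f1 (chr17:35505782-35506031, plus strand): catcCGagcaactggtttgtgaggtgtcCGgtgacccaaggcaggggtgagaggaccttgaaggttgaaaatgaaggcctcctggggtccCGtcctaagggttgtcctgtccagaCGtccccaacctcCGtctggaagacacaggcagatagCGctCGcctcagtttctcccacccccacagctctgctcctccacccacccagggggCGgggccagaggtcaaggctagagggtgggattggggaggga
Nanog (chr6:122707239-122707488, plus strand): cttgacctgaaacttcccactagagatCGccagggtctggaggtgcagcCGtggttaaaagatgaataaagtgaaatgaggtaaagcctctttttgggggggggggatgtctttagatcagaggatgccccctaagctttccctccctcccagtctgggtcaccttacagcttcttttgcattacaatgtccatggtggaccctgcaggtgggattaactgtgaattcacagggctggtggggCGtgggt

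The marked stretches of this group held 32 CpGs at Klf4, 27 at Sox2 and 41 at the outer start of Lin28b. The unmarked stretches held 6 at the inner start of Lin28b, 8 at Pou5f1 and 3 at Nanog. Esrrb, which is not printed, went the other way. The 250 bases before its marked inner start at 86421644 held 3 CpGs, and those before its unmarked outermost start held 6. The number of CpGs in such stretches therefore did not separate marked from unmarked starts in every member. Of the 32851 promoters in the table, 95.4% had fewer CpGs than Klf4 and 29% had fewer than Nanog.

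Klf4, a zinc finger factor that guides the differentiation of epithelia and also serves reprogramming, had both marks at its start. The gene (ENSMUSG00000003032.8, chr4:55527143-55532466, minus strand) was covered at its start by a 6000 bp interval with both marks, chr4:55528501-55534500. Its H3K27ac score was 1000 in hypoxia and 1000 in normoxia, and its H3K4me3 score was 122 in both lists. The score is the authors' value per peak, its definition is not given in the sources used here, and its range differs between chromosomes. Its rank is therefore given only among peaks of the same list and chromosome, and scores of genes on different chromosomes are not compared. On chromosome 4, 60.5% of H3K27ac peaks in hypoxia and 67.9% in normoxia scored lower than the Klf4 peak, and all the others shared its value of 1000. In hypoxia 39.5% of the chromosome's H3K27ac peaks had this value, so the tie ranks Klf4 only loosely. By the H3K4me3 score 32.2% of the chromosome's hypoxia peaks were lower. These are ranks of the score and not of the amount of either mark. When the lowest-scoring 25% of each whole list was left out, Klf4 lost the H3K4me3 call and had H3K27ac only, and with that limit set by chromosome it kept both marks.

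A 1000 bp shoulder of H3K27ac alone, chr4:55534501-55535500, extended this domain upstream with a score of 98 at both oxygen levels. The joined H3K27ac domain at the Klf4 start was therefore 7000 bp wide. Domains at the 8535 protein-coding genes with the mark had a median of 3500 bp (interquartile range 2500 to 7000 bp), and 74.6% were narrower than that of Klf4. A further 2000 bp H3K4me3 peak, chr4:55514001-55516000, lay 11143 bp downstream of the gene body, within 1000 bp of no protein-coding start, and scored 122.

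Myc, a basic helix-loop-helix factor that raises growth and ribosome production in dividing cells, had 1 interval of 6000 bp with both marks at its starts, chr15:61983501-61989500. It covered all 6 annotated starts of the gene (ENSMUSG00000022346.15, chr15:61985391-61990374, plus strand). The H3K27ac score was 131 in hypoxia and 131 in normoxia, and 66.7% and 73% of the chromosome's peaks scored lower. The H3K4me3 score was 1000 in both lists, a value that 86.9% of the peaks on chromosome 15 shared and that therefore ranks Myc little.

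Klf4 and Myc shared a broad H3K4me3 domain that the choice of genes had not used. Each was 6000 bp wide, against a median of 3000 bp (interquartile range 2500 to 3500 bp) over 13102 protein-coding genes with H3K4me3 at a start, and 95.3% of those genes had a narrower one. The 3 members with H3K4me3 alone had domains of 2500 bp at Sox2, 2500 bp at Lin28b and 2000 bp at Esrrb. A width of 2500 bp exceeded that of 16.7% of the genes and equalled that of 28.6%, and a width of 2000 bp exceeded that of 1.56%. The acetylated and the unacetylated members with H3K4me3 thus lay on opposite sides of the median width. Widths over all genes were not split by acetylation, so whether this holds beyond these members was not tested. Peak edges are multiples of 500 bp, which sets the resolution of these widths.

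The surroundings of the acetylated pair differed. Within 100000 bp of the outermost Myc start, H3K27ac peaks covered 53500 bp, more than at 95.6% of protein-coding genes, for which the median was 6500 bp. Most of this lay in the noncoding gene Pvt1, the neighbour downstream of Myc. A 4000 bp interval at the Pvt1 start carried H3K4me3 and H3K27ac, with H3K27ac scores of 104 in hypoxia and 129 in normoxia, and the adjoining interval of H3K27ac alone was 43500 bp wide with a score of 131 in both. Around Klf4 the cover was 7000 bp, all of it the domain at its own start.

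**Figure D1:**
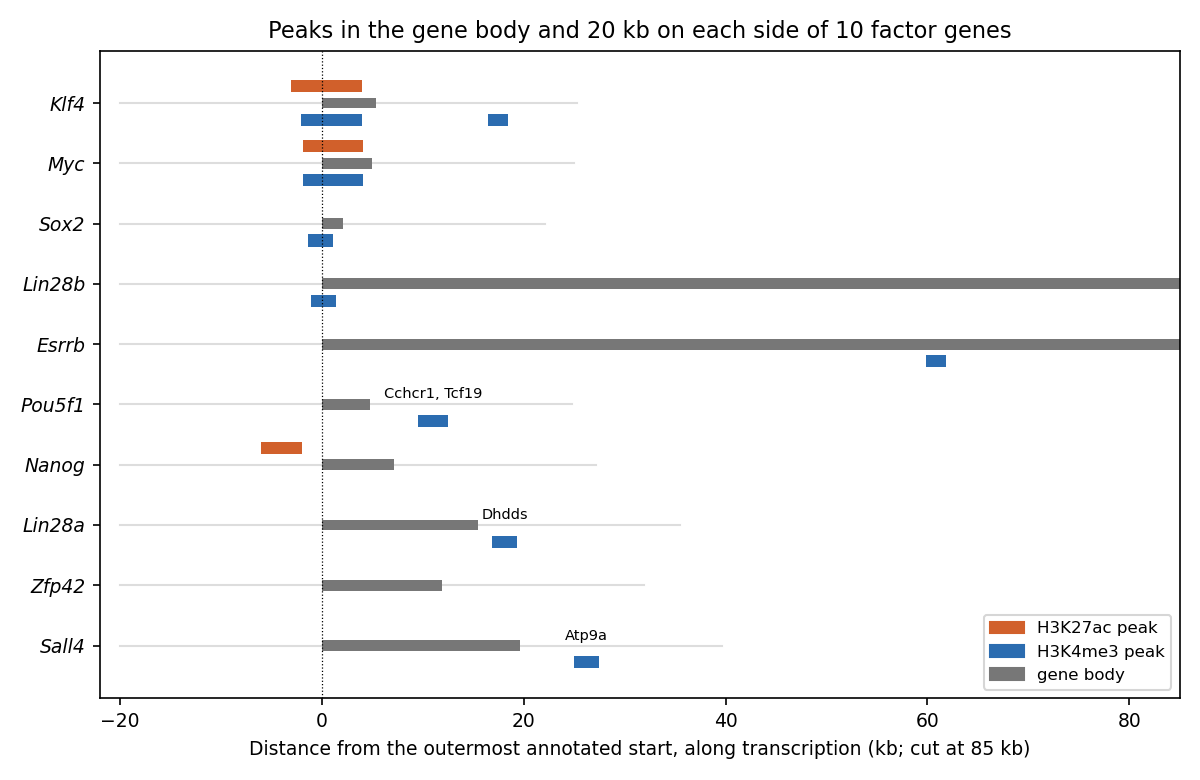
Peaks of H3K27ac (orange, above each gene) and H3K4me3 (blue, below) relative to the outermost annotated start of each of the 10 genes, in kb along the direction of transcription, with the gene body in grey and the 20 kb flanks as thin lines; the names over some peaks are other genes that start there. Orange peaks appear at Klf4, at Myc and upstream of Nanog, and the axis is cut at 85 kb, which hides the ends of Lin28b and Esrrb but no peak.

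Sox2, the partner of Oct4 on DNA and a factor of neural progenitors as well, had 1 peak in its window. The H3K4me3 interval chr3:34649001-34651500 covered the start of the single-exon gene (ENSMUSG00000074637.7, chr3:34650405-34652461, plus strand) and lies inside the noncoding gene Sox2ot, which overlaps it. It scored 87 in both H3K4me3 lists, above 9.18% of the peaks on chromosome 3, which put it near the low end. No H3K27ac peak came within 628905 bp of the Sox2 start, where the nearest lay at Fxr1, and 92.5% of protein-coding genes had one nearer. The Sox2 call was lost when the lowest-scoring 25% of peaks was left out, over the list or by chromosome.

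Lin28b, an RNA-binding protein that blocks the maturation of let-7 microRNAs, was marked away from the start of its basic transcript. The H3K4me3 peak chr10:45485001-45487500 covered the 2 outer starts of the gene (ENSMUSG00000063804.8, chr10:45376620-45486395, minus strand), at positions 45486395 and 45485777, which are outside the basic transcript set. The inner start at 45470201, which alone is in the basic transcript set, had no peak. The peak scored 127 in both lists, above 21.2% of the chromosome's peaks. The nearest H3K27ac peak was 401701 bp from a Lin28b start, at Prep, and 89% of protein-coding genes had one nearer.

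Esrrb, an orphan nuclear receptor that sustains self-renewal in embryonic stem cells, was likewise marked at only some of its starts. The H3K4me3 peak chr12:86421001-86423000 covered the inner starts at 86421644 and 86421883. It lay 59884 bp inside the gene (ENSMUSG00000021255.17, chr12:86361117-86521628, plus strand) from the outermost start, which was unmarked, and the starts at 86470117 and 86504409 were unmarked too. With a score of 127 in both lists it exceeded 68.1% of the chromosome's H3K4me3 peaks. The nearest H3K27ac peak was 118117 bp away, at Gpatch2l. Counted by outermost starts alone, Esrrb was unmarked and Lin28b was not, and counted by the basic transcript set Lin28b was unmarked and Esrrb was not.

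Over all protein-coding genes, 13102 had H3K4me3 at a start and 63.1% of them had H3K27ac there as well. Of the 5 members with H3K4me3, 2 had both marks.

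Pou5f1, whose product Oct4 is required for pluripotency, had no peak at any of its 6 annotated starts. The gene (ENSMUSG00000024406.16, chr17:35506018-35510772, plus strand) had 1 H3K4me3 peak in its window, chr17:35515501-35518500, which lay 4729 bp downstream of the gene body at the starts of Tcf19 and Cchcr1 and scored 131. The nearest H3K27ac peak was 39180 bp from a Pou5f1 start, at Cdsn, with scores of 130 in hypoxia and 103 in normoxia. For 60.1% of protein-coding genes an H3K27ac peak lay nearer.

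Lin28a, the paralogue of Lin28b, gave the same picture. The gene (ENSMUSG00000050966.9, chr4:134003330-134018841, minus strand) was unmarked, and the only peak of its window, the H3K4me3 interval chr4:133999501-134002000 with a score of 129, lay 1330 bp beyond its 3′ end at the start of Dhdds. The nearest H3K27ac peak, 39911 bp from a Lin28a start, was at Hmgn2 and scored 1000 in both lists.

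Sall4, a zinc finger factor of embryonic stem cells and early germ cells, had none of its 6 annotated starts marked. The gene (ENSMUSG00000027547.17, chr2:168748332-168767943, minus strand) had a single H3K4me3 peak in its window, chr2:168740501-168743000, at the start of Atp9a, 5332 bp downstream of its body. The 3 window peaks of Pou5f1, Lin28a and Sall4 were thus all H3K4me3 peaks at the starts of neighbours. The nearest H3K27ac peak to Sall4 was 174943 bp away.

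Zfp42, which encodes Rex1 and is widely used as a marker of naive embryonic stem cells, had no peak of either mark in its window. The gene (ENSMUSG00000051176.6, chr8:43295063-43306980, minus strand) was 785021 bp from the nearest H3K27ac peak and 1627021 bp from the nearest H3K4me3 peak, at Fat1. Nearer peaks were found for 94.1% and 98.8% of protein-coding genes. It was the most isolated of the 10 genes by either mark.

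Nanog, a homeobox factor of the pluripotency core, was the only unmarked member with an acetylated region in its window. The gene (ENSMUSG00000012396.12, chr6:122707489-122714633, plus strand) had a 4000 bp H3K27ac peak without H3K4me3, chr6:122701501-122705500, whose near edge was 1989 bp upstream of its start. It scored 133 in hypoxia and 129 in normoxia, above 90.7% and 86.3% of the H3K27ac peaks on chromosome 6. The peak overlapped no annotated gene, and Nanog had the nearest protein-coding start. Its nearest H3K4me3 peak was 55933 bp away, inside Slc2a3. At the 1000 bp distance used here Nanog was unmarked, and at 2500 bp it became the only member with H3K27ac alone.

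The Nanog start and the upstream peak were then searched for motifs on both strands, and a match describes letters, not binding. The proximal promoter holds the composite of an octamer core (TTTGCAT), 1 base and a SOX site (ACAATG), which Oct4 and Sox2 are known to bind as a pair in embryonic stem cells. It is shown with flanking bases, the composite in capitals, at chr6:122707414-122707427 on the plus strand, 75 bp before the outermost start.
Nanog composite: cagcttctTTTGCATTACAATGtccatggt
Of the 32851 RefSeq promoters of 300 bases, 2 hold this composite, or 0.00609%, and both are overlapping entries of Nanog itself. Only these exact letters were searched, and they are the letters of the Nanog site, so other forms of the paired site were missed. The count therefore cannot show that the paired site is particular to Nanog. The octamer core alone was in 4.63% and the SOX site alone in 12.6%. This composite lay outside the acetylated region and in unmarked DNA.

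The central 2000 bp of the upstream peak held no octamer core and no composite. Of 5609 acetylated regions without H3K4me3, this peak among them, 32.9% held an octamer core in a window of the same size. The exact composite was in 0% of them, so its absence does not set this peak apart. The window of the upstream peak held 1 SOX site, present in 67.2% of the regions. It also held 1 AP-1 site (TGANTCA), present in 58.9% of the regions and known as the site of Fos and Jun proteins, and 1 E-box (CACGTG), present in 23.8%. Both are printed with flanks and the match in capitals, the first at chr6:122704057-122704063 and the second at chr6:122704150-122704155 (plus strand).
Nanog upstream AP-1 site: agtgaggtccTGACTCAaaattaaaaa
Nanog upstream E-box: ttaagcaaacCACGTGaaagactttt
No RUNX site (TGTGGTT) was found in the window, against 43.8% of the regions. The core of the hypoxia response element (ACGTG) occurred 3 times, of which 2 overlap the E-box, and 62.6% of the regions held it. The GC content of the window was 46.5%, beside a median of 45%, and 26.4% of its bases were soft-masked repeats, beside a median of 18.2%.

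In the promoter table ACGTG was found in 19.6% of entries. Among the members it occurred at Klf4 and at the inner Lin28b start, in each as 1 E-box (CACGTG) that reads as ACGTG on both strands, and in no other member entry. Of the 10 members, 8 had an entry in the table.

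**Figure D2:**
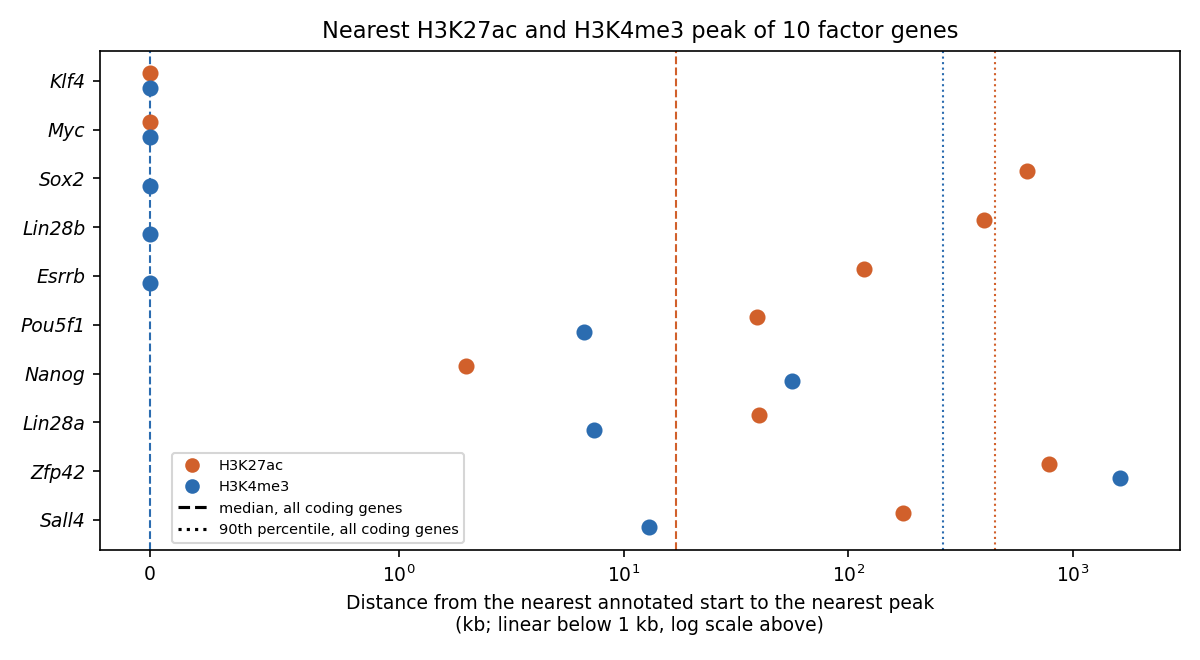
Distance in kb from the nearest annotated start of each gene to the nearest H3K27ac peak (orange) and H3K4me3 peak (blue), linear below 1 kb and on a log scale above, with the median (dashed) and 90th percentile (dotted) over 21755 protein-coding genes. H3K27ac lies at 0 for Klf4 and Myc and beyond the 90th percentile of 451120 bp for Sox2 and Zfp42.

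Over the 21755 protein-coding genes on chromosomes other than Y, the median distance from a start to the nearest H3K27ac peak was 17046 bp and to the nearest H3K4me3 peak 0 bp. Over the 10 members the medians were 79014 bp and 3340 bp, and the latter was 13162 bp when only outermost starts were used.

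When whole windows were read in place of starts, Klf4 and Myc had both marks, Pou5f1, Sox2, Lin28a, Lin28b, Esrrb and Sall4 had H3K4me3 only, Nanog had H3K27ac only and Zfp42 had neither. The background shares were 53.1% for both marks, 16.7% for H3K4me3 only, 2.09% for H3K27ac only and 28.2% for neither. The 6 genes with H3K4me3 only include 3 whose peak belongs to a neighbour. In all, the windows held 11 intervals, of which 5 lay at a start of the member, 3 at a start of another protein-coding gene and 3 at no protein-coding start.

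To compare the oxygen levels, peaks were sorted into those called in both lists of a mark and those called in 1 list. None of the 4 H3K27ac peaks in the member windows was called at 1 oxygen level only, beside 5.23% of all 15421 H3K27ac peaks. None of the 9 H3K4me3 peaks was, beside 0.0616% of all 14609. Taking 3 divided by the number of peaks as the limit, a count of 0 allows shares of up to 75% and 33.3%. This rule is rough and too wide for so few peaks, and it covers counting error only. A difference of the usual size was therefore not detectable with so few peaks. Of all protein-coding genes, 5.88% had a peak called at 1 oxygen level in the window, and of the members 0. In windows extended to 100000 bp, none of 14 H3K27ac and 21 H3K4me3 peaks was called at a single oxygen level either. The nearest such H3K27ac peak to any member was hypoxia-only, 174943 bp from a Sall4 start, and was also the nearest H3K27ac peak of either kind to Sall4. Next came a hypoxia-only peak 194680 bp from a Pou5f1 start and a normoxia-only peak 444592 bp from an Esrrb start, and at Myc the distance reached 2814891 bp.

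The scores of the H3K27ac peaks at the members were the same at both oxygen levels for Klf4 (1000 and 98) and Myc (131), and 133 in hypoxia against 129 in normoxia at Nanog. Over 14614 H3K27ac peaks shared between the lists, 43.6% had equal scores, 39.9% scored higher in hypoxia and 16.6% higher in normoxia. The H3K4me3 scores were equal in both lists at all 14600 shared peaks, so they could not show a difference between the oxygen levels at any gene.

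CpG density was then set against the marks, as the ratio of observed to expected CpGs in 500 bp on each side of a start. Protein-coding genes were split into 5 groups of equal size by this ratio at the outermost start, from group 1 with the lowest to group 5 with the highest ratios. In this order, H3K4me3 was present within 1000 bp of that start in 2.92%, 15.6%, 70.9%, 95.3% and 98.1% of the genes, and both marks in 1.66%, 8.55%, 30.9%, 56.1% and 76.1%. Genes with both marks had a median ratio of 0.779 (interquartile range 0.662 to 0.877), those with H3K4me3 only 0.679 and unmarked genes 0.196 (0.119 to 0.325).

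Most marked member starts were rich in CpG. The outermost starts of Lin28b (1.08), Klf4 (0.96) and Sox2 (0.959) were in group 5, above 99.7%, 96.3% and 96.2% of protein-coding genes. Myc (0.777) was in group 4. The inner Lin28b start, which was unmarked, had a ratio of 0.438. At Esrrb the marked inner starts had ratios of 0.661 and 0.733, and the unmarked outermost start 0.283. Its other unmarked starts had 0.623, close to the marked ones, and 0.109. Within Lin28b and within Esrrb, the H3K4me3 peak thus sat at the starts with the highest ratios of the gene.

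The unmarked members spread more widely. Pou5f1 (0.332) and Nanog (0.303) were in group 2, as was Lin28a (0.384), and Zfp42 (0.503) was in group 3. Sall4 stood out. Its outermost annotated start, outside the basic transcript set, had a ratio of 0.405. The outermost start of its basic transcripts, at 168767201, had 0.832 and fell in group 5. When all genes were sorted by their outermost basic start, 82 of the 4388 genes in group 5, or 1.87%, lacked H3K4me3 there, and Sall4 was 1 of them. The ratio of this Sall4 start was 0.654 in 250 bp on each side and 0.674 in 1000 bp, so its place depended on the window.

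**Figure D3:**
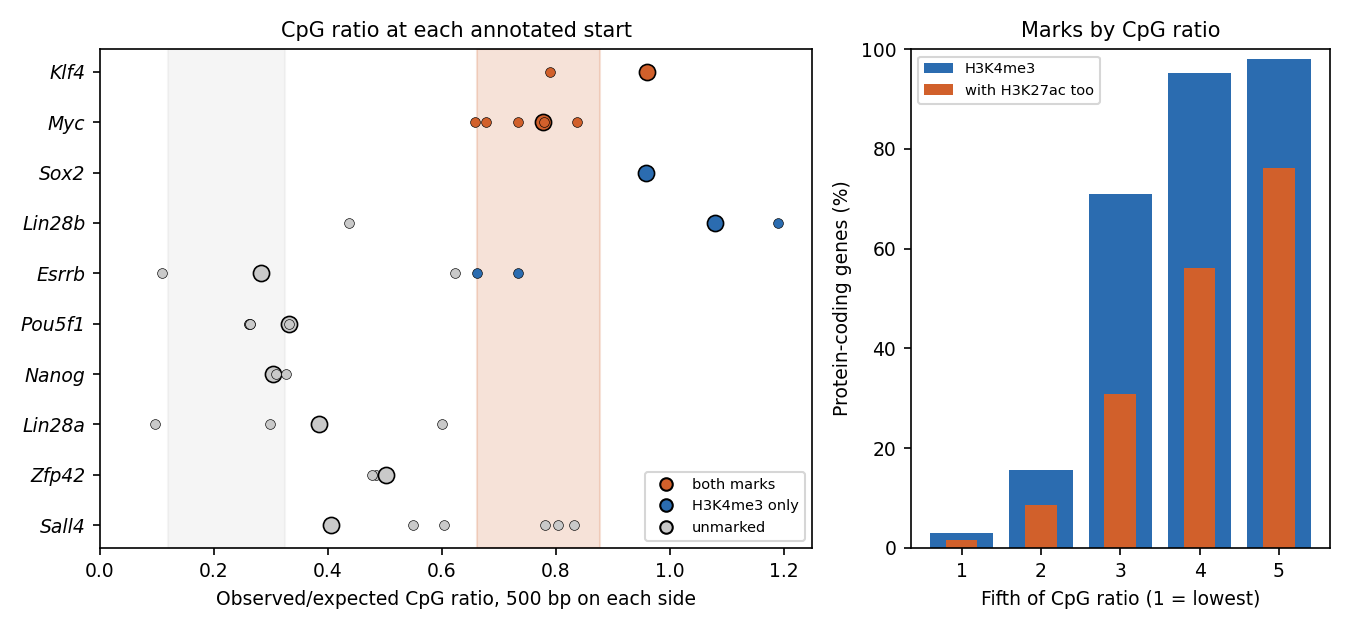
Left, observed over expected CpG ratio in 500 bp on each side of every annotated start of the 10 genes (large points, outermost start), coloured by the marks within 1000 bp, with the interquartile range of all protein-coding genes with both marks (orange band) and of unmarked genes (grey band). Right, share of protein-coding genes with H3K4me3 and with both marks in 5 equal groups of the ratio, which climbs from 2.92% to 98.1% for H3K4me3, while the Sall4 points without a mark reach 0.832.

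Relatives of each factor and the wider network were read in the same way. Of 18 further factors of the pluripotency network, 5 had both marks, 9 had H3K4me3 only and 4 were unmarked. The 5 were Tbx3, Klf2, Zfp281, Tcf7l1 and Glis1, most of which are known from tissues outside the embryo too. Zfp281 and Glis1 had H3K27ac scores of 1000 at both oxygen levels, Tbx3 scored 135 at both, and Klf2 scored 134 in hypoxia and 133 in normoxia. Tcf7l1 scored 127 in hypoxia and 107 in normoxia. The unmarked ones were Prdm14, Nr0b1, Otx2 and Foxd3. Genes known mainly as readouts of pluripotency were unmarked in 14 of 20 cases, among them Dppa3, Dppa5a, Tdgf1, Fgf4 and Nodal. Fbxo15 was the only one of them with both marks, scoring 128 in hypoxia and 93 in normoxia. Utf1, Dnmt3b, Trim71, Cdh1 and Epcam had H3K4me3 only.

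Among the gene families, Klf4 had much company and Myc little. Of 16 other Klf genes, 10 had both marks, 5 had H3K4me3 only and Klf17 had none, and Klf6, Klf7 and Klf13 scored 1000 for H3K27ac at both oxygen levels. Klf2 scored 134 in hypoxia and 133 in normoxia, and Klf9 and Klf11 scored 134 at both. These genes lie on different chromosomes, so their scores give no order among them. Mycn and Mycl, the relatives of Myc, had H3K4me3 only. All 9 genes of the MYC partner network, such as Max, through which MYC binds DNA, and Mnt, Mga and Mxi1, which compete for it, had both marks. Mga and Mxi1 scored 1000 and Mnt 134 at both oxygen levels, Max scored 131 in hypoxia and 98 in normoxia, Zbtb17 scored 131 and 121, and Mxd4 scored 125 at both.

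The Sox2 state was the most frequent in its family. Of 18 other Sox genes, 8 had H3K4me3 only, 5 were unmarked and 5 had both marks. Those 5 included Sox9 (scores 139 and 138), the regulator of cartilage formation, Sox4 (1000 and 1000) and Sox6 (1000 and 123). The remaining members of this group were Sox12 (1000 and 1000) and Sox11 (53 and 53), the scores being those of hypoxia and normoxia. Of the 14 Pou genes besides Pou5f1, only Pou2f1, which encodes the widely expressed Oct1, had both marks, with scores of 145 in hypoxia and 139 in normoxia, while 7 had H3K4me3 only and 6 were unmarked. Sall1, Sall2 and Sall3 all had H3K4me3 only, so Sall4 was the unmarked member of its family of 4. Esrra, the receptor that drives mitochondrial genes, had both marks, with scores of 76 and 59, and Esrrg had H3K4me3 only.

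The LIN28 and let-7 pathway was marked throughout although Lin28a was not. Of 10 genes that act with LIN28 or are let-7 targets, 6 had both marks and 4 had H3K4me3 only. The 6 were Zcchc11 and Zcchc6, which add uridines to the let-7 precursor, Dis3l2, the nuclease that then degrades it, and the targets Igf2bp2, Hmga1 and Hmga2. At the Zcchc11 start the H3K27ac score was 1000 in hypoxia and 93 in normoxia, and at Zcchc6 it was 1000 in both. The scores were 135 at Hmga2, 61 at Igf2bp2 and 59 at Hmga1 in both lists, and 123 in hypoxia and 124 in normoxia at Dis3l2. With lists of this size, these counts are descriptions beside the shares over all genes, 37.7% for both marks and 39.1% for neither.

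**Figure D4:**
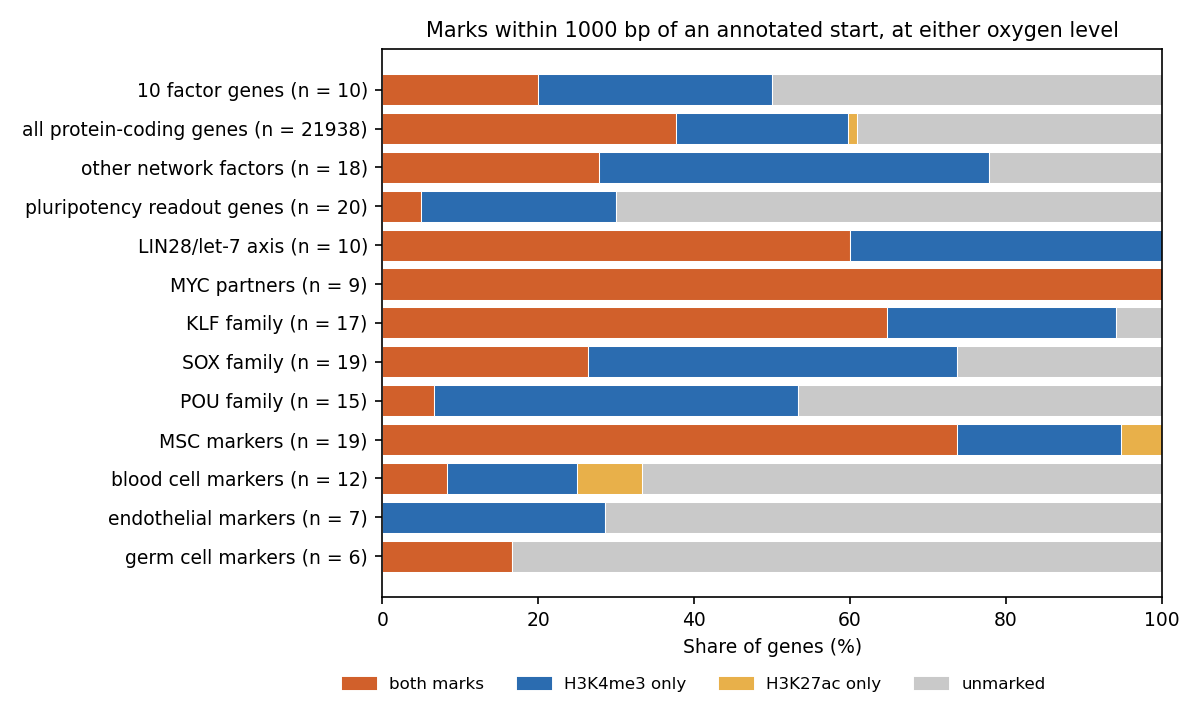
Share of genes (%) in each list with both marks, H3K4me3 only, H3K27ac only or neither within 1000 bp of an annotated start, beside all 21938 protein-coding genes. All 9 MYC partners have both marks, and 14 of 20 readout genes are unmarked.

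The labelled cell type was checked against marker lists. Of 19 MSC markers, 14 had both marks, 4 had H3K4me3 only and 1, Ly6a (the gene of Sca-1), had H3K27ac only, with scores of 128 in hypoxia and 104 in normoxia. Those with H3K4me3 only were Eng, Nt5e, Twist2 and Lepr, and of them only Lepr lacked an H3K27ac peak in its whole window. Pdgfra, the gene of the sort marker CD140a, scored 126 at both. Col3a1 and Fn1 scored 1000 at both oxygen levels, Itgb1 scored 145 and Prrx1 142 at both, Cd44 scored 1000 in hypoxia and 132 in normoxia, and Pdgfrb scored 1000 and 113. These markers were named for their high hypoxia scores, a choice that favours genes scoring higher in hypoxia. Vcam1, which that choice left out, scored 126 in hypoxia and 1000 in normoxia. Of 12 blood cell markers 8 were unmarked, including Ptprc (the gene of CD45, which the sort excluded) and Spi1, while Cd68, a macrophage gene, had both marks (133 at both oxygen levels) and Csf1r, the receptor of a macrophage growth factor, H3K27ac only (76 and 73). Of 7 endothelial markers 5 were unmarked and none was acetylated within 1000 bp of a start, although Pecam1 had an H3K27ac peak elsewhere in its window, and of 6 germ cell markers 5 were unmarked and Dazl had both marks (106 in hypoxia, 78 in normoxia). The peaks of a few cells of another type cannot be separated from those of the MSCs in such lists, and their part in the states of the 10 genes was not tested.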

How the data were processed

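ChIP-seq of H3K27ac, H3K4me3 and input was done on 12 libraries. The methods of the study name bowtie2 for mapping to mm10, Picard for duplicate removal and chromstaR, a hidden Markov model fitted jointly over libraries, for the peaks. The authors deposited 4 peak lists, each pooling both libraries of its group, with a position and a score per peak. The deposited score is not defined in the sources used here, is capped at 1000 for 0% to 42.2% of the H3K27ac peaks and 0% to 86.9% of the H3K4me3 peaks of a chromosome (hypoxia), and its ranks are given only within a list and chromosome. Depth per sample is unknown.

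Peaks were joined with GENCODE M21 genes of the same build (all transcripts, chromosomes 1 to 19, X and Y). A gene had a mark where a peak of either oxygen level lay within 1000 bp of any annotated start. Peaks sharing no base with the other oxygen list of their mark were called at 1 oxygen level only. The members and lists (161 symbols, all matched, 2 through another symbol) were chosen with earlier results of these data known. All members were named, and from each other list every gene with H3K27ac at a start where these were 6 or fewer, otherwise the 6 with the highest hypoxia score (and ties), a choice of names that takes no account of the chromosome, and every gene with a peak at 1 oxygen level only. Naming by the hypoxia score favours genes that score higher in hypoxia than in normoxia. Other named list genes are examples chosen after their values were seen. Start states were checked on simulated data. Python 3.11.15 and numpy 2.4.6 were used. Alternatives covered distances, flanks, score limits, transcript sets and CpG windows.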

Additional observations from a re-analysis of the deposited data

How the results depend on the processing

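The lists carry no read depth and no library values, so precision is unknown and leaving out a library could not be done. No paired analysis was possible because each list pools both libraries of its group. The basic transcript set and the score limit by chromosome were chosen after seeing the data. Of the values that answer a comparison, 47 stayed near those reported and 27 moved. The limit was loose for counts of members. Members with H3K4me3 only that fell from 3 to 2 at starts, or from 6 to 4 in windows, were counted as near. For shares over all genes it was tighter, and a share of both marks of 38.7% against 37.7% was counted as moved. At starts, leaving out the lowest-scoring 25% of each list left 1 member with both marks and gave 1 with H3K27ac only (Klf4, whose H3K4me3 score of 122 fell below the lowest kept, 124). A distance of 2500 bp also gave 1 with H3K27ac only (Nanog). Over all protein-coding genes, both marks came to 38.7% at 2500 bp, 30.1% without the lowest 25%, 34.7% by outermost start, 36.5% with the basic set and 32.8% without the lowest 25% by chromosome, and unmarked genes to 38.3%, 45.2%, 42.2%, 39.9% and 43.3% in the same order. H3K4me3 only was 19.8% without the lowest 25%, and H3K27ac only 4.91%, or 2.28% by chromosome. In windows, both marks were found at 5 members with flanks of 50000 bp, at 5 with 100000 bp and at 1 without the lowest 25%. H3K4me3 only was 3 for the gene body alone (0 bp). H3K27ac only was 0 at 0, 50000 and 100000 bp and 2 without the lowest 25%. Unmarked members were 5 at 0 bp, 2 at 5000 bp and 2 without the lowest 25%. The count of peaks at 1 oxygen level was 0 with flanks of 100000 bp and without the lowest 25%. An overlap of 50% and a gap of 1000 bp could not change it, since overlapping peaks of a mark were identical intervals and the gap only tightens the rule. The median distance of the members to H3K4me3 was 13162 bp by outermost start, against 3340 bp.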

Other observations

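Of the 151 different list genes that are not among the 10 factors, 6, or 3.97%, had an H3K27ac peak at 1 oxygen level only in their window, beside 5.88% of all protein-coding genes with such a peak of either mark. They were 4 genes of the surrounding lists and 2 MSC markers. Glis1, which can stand in for Myc in reprogramming, had a hypoxia-only peak of 8500 bp at one of its own starts (chr4:107436501-107445000, score 55). Sox6 had one of 9000 bp (chr7:115623501-115632500, score 64) and Mxd1, a MYC antagonist, one of 1500 bp (chr6:86670501-86672000, score 56), both away from their starts. Hmga2, a let-7 target, had a normoxia-only peak of 4500 bp (chr10:120400001-120404500, score 50). Among the MSC markers, Thy1 had a hypoxia-only peak of 3000 bp at a start (score 55) and Cxcl12 one of 9500 bp away from its starts (score 52). These scores lie near 50, the lowest score in the lists, and none of the 6 peaks has a replicate check.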
